A study of Homo sapiens with 12 samples.

Results

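The genes described here make cysteine from homocysteine and make, use and recycle glutathione. They were chosen by name: CBS and CTH for transsulfuration, GCLC, GCLM and GSS for glutathione synthesis, GSR, GPX1 and GPX4 for its redox cycle, GGCT for its breakdown and MGST1 as a membrane-bound glutathione transferase. These are 10 of the 18969 genes listed in the deposited tables, and 9 of them were among the 12741 genes with enough counts to be tested. RNA was sequenced from HCT116, a long-established line of human colorectal carcinoma cells, grown in RPMI-1640 medium with fetal bovine serum. The 12 libraries form 3 groups of 4. In both recovery groups the cells had been starved of methionine for 24 h and had then spent 24 h in medium with methionine. The starvation medium of one group held UNC0642, and that of the other its vehicle DMSO. No inhibitor was present during the recovery. UNC0642 inhibits the histone H3 lysine 9 methyltransferases EHMT1 and EHMT2, and the labels used here do not give its concentration. The third group carries the label 0 h, from which it is unclear whether those cells were taken before the starvation or when it ended. In what follows, "with DMSO" and "with UNC0642" stand for the recovery groups.

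Methionine feeds transsulfuration through homocysteine. CBS condenses homocysteine with serine to cystathionine, and CTH cleaves cystathionine to cysteine. Cysteine, glutamate and glycine are then joined to glutathione, the main small thiol of the cell: glutamate-cysteine ligase, made of the catalytic subunit GCLC and the modifier subunit GCLM, performs the rate-limiting step, and GSS adds the glycine. The selenoenzymes GPX1 and GPX4 oxidise glutathione while reducing peroxides, and GSR returns the oxidised form to glutathione with NADPH. GCLC and GCLM are textbook targets of the antioxidant factor NRF2, and CTH is a textbook target of the amino acid stress factor ATF4.

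Total counts were 14658082 to 20179847 per library. Epithelial markers summed to 4936 to 5051 CPM (counts scaled to a common library size by TMM factors) at 0 h, 5559 to 5710 with DMSO and 5575 to 5790 with UNC0642. KRT8, the most abundant of them, was at 2439 to 2498, 2816 to 2895 and 2855 to 2994 CPM in the same order. EPCAM went the other way, at 332 to 334, 307 to 316 and 289 to 298 CPM. Of the 10 epithelial markers, 6 (EPCAM, CDH1, KRT8, KRT18, KRT19 and CDX2) were above 10 CPM in every library, and the differentiation markers VIL1, LGALS4 and CEACAM5 were at most 0.384 CPM in any library. The differentiation marker KRT20 was at 0.877 to 1.34 CPM in the 4 libraries with UNC0642, above the other 8 libraries (0.245 to 0.731 CPM), and was called higher than after DMSO recovery (log2 fold change 1.60 ± 0.37 (SE), edgeR adjusted p = 0.00545) and than at 0 h (1.62 ± 0.38, adjusted p = 0.000664). Markers of blood, fibroblasts and endothelium summed to 28.5 to 50.9 CPM at 0 h, 34.1 to 44.5 with DMSO and 37.8 to 43.6 with UNC0642, of which COL1A1 gave 19.4 to 31.3 CPM and CD68 6.08 to 9.60 CPM. Of these 11 markers only COL1A1 was above 10 CPM in every library, and the leukocyte markers PTPRC and CD3E were at or near 0 (at most 0.122 CPM). More than 1 CPM of COL1A2 was seen in 6 libraries (0 h 1, 2 and 3, DMSO recovery 1, UNC0642 recovery 3 and 4), with its highest value, 6.81 CPM, in 0 h 3. Gene length exceeded RSEM's effective length by a gap that split the libraries: 7 had a long gap of 119.9 to 126.8 bases and 5 a short gap of 101.3 to 106.0 bases, and each group held both. The part of these features in the results was not tested beyond the values given beside each result. Whether replicates came from separate cultures is not in the labels, so the p-values reflect only the variation among these 12 samples, which could be technical.

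The members covered most of the range of expression. In FPKM, which is corrected for length and so allows genes to be compared, the peroxidase GPX1 was the most abundant with a median of 322 (305 to 339 over the 12 libraries), and the lipid peroxidase GPX4 followed at 300.0 (286 to 322). Those ranges overlap, but the ratio of GPX4 to GPX1 FPKM was below 1 in 12 of 12 libraries (0.890 to 0.989). As a ratio of counts, with no correction for length, it reached 1.01 in DMSO recovery 1. GPX1 and GPX4 both stood above 98% of the tested genes (percentiles 98.3 and 98.2). MGST1 came next with a median of 93.9 FPKM (78.6 to 100.2), then GSR with 71.7 (69.1 to 75.2), GGCT with 62.1 (57.6 to 66.9) and GSS with 46.2 (42.6 to 47.6). The ligase subunits were lower, GCLC at 20.2 FPKM (18.2 to 21.7) and GCLM at 16.9 (15.0 to 18.2), with percentiles of 67.9 and 63.7. CTH was the lowest of the tested members at 3.69 FPKM (3.05 to 4.73, percentile 27.3). Apart from GPX1 and GPX4, and CBS at the bottom, neighbours in this order had ranges of FPKM that did not overlap. The ranges of GCLC and GCLM came closest, since the lowest GCLC value and the highest GCLM value were both near 18.2.

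**Figure D1:**
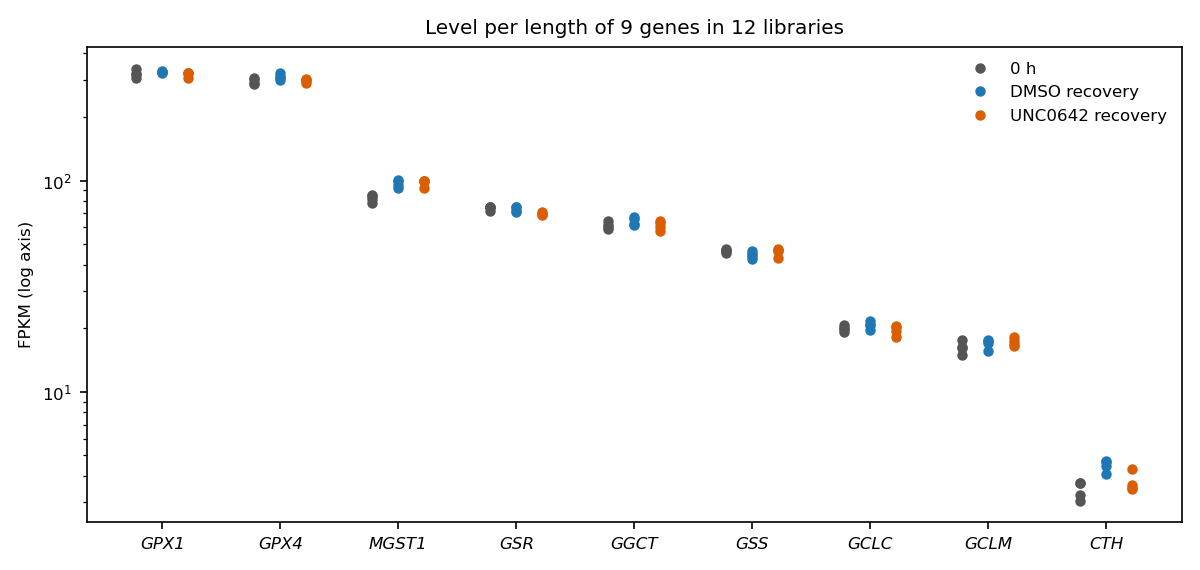
FPKM (log axis) of the 9 tested members in each of the 12 libraries, with points coloured by group and genes ordered by their median. GPX1 and GPX4 lie near 300, the ligase subunits near 20, and CTH between 3.05 and 4.73, with differences between genes much larger than those between groups.

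The DMSO recovery comparison asks how the transcripts of cells that had recovered from methionine starvation differed from those at 0 h. Of the 9 tested members, 4 were called (CTH and MGST1 higher, GSS and GSR lower) at an adjusted p under 0.05, edgeR's quasi-likelihood test with Benjamini-Hochberg adjustment over all genes. That is to be read against 44.1% of all genes tested, 22.4% higher and 21.7% lower. The groups did not overlap for 3 members, beside 38.3% of genes. The median log2 fold change was -0.0018 over the members and 0.0069 over all genes. The share of members called is near the background. Other scalings changed the split of calls over all genes: 50.8% of calls were higher with TMM factors (edgeR's scaling of library sizes), 67.5% with library totals and 68.5% with log2(FPKM + 1), and under each of these last settings CTH and MGST1 were the members called.

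The UNC0642 recovery comparison asks the same of cells starved in the presence of the inhibitor. Here 3 of 9 tested members were called (MGST1 higher, GSR and GPX1 lower), beside 47% of all genes, 23.4% higher and 23.6% lower. The groups did not overlap for 3 members (GSS, GSR and MGST1), beside 40.2% of genes. The median log2 fold change was -0.07 over the members and 0.01 over all genes. Of all calls, 49.8% were higher with TMM factors, 67.5% with library totals and 67.3% with log2(FPKM + 1). The last 2 settings called MGST1 and GSR.

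The comparison of the recovery groups asks what the inhibitor during starvation changed. None of the 9 tested members was called, beside 4.58% of all genes (2.06% higher and 2.53% lower), and for none did the groups separate fully, beside 10.5% of genes. At an unadjusted p under 0.05 there were 2 members (CTH and GSR), beside 17.2% of genes. DESeq2, limma-voom and limma on log2(FPKM + 1) also called 0. For the 8 tested members other than CTH, the 95% intervals of the difference lay between -11.1% (the lower bound of GCLC) and 9.21% (the upper bound of GSS).

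**Figure D2:**
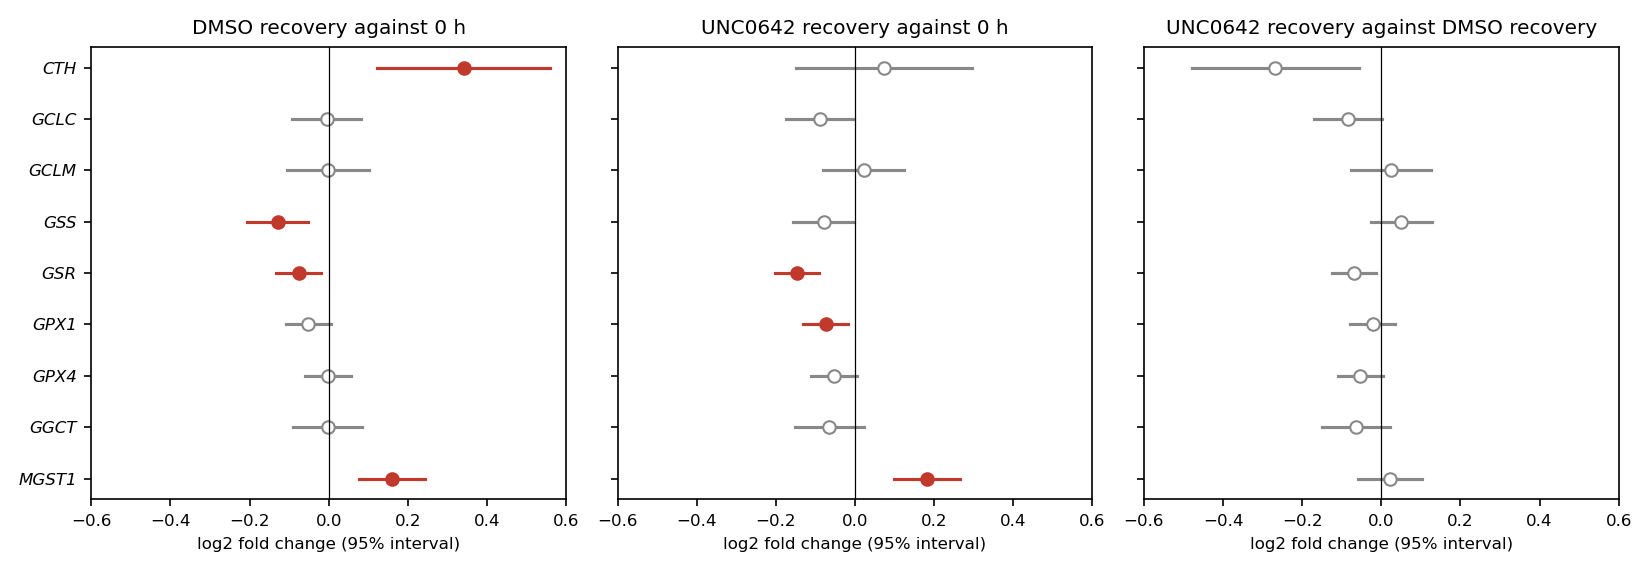
Log2 fold change of the 9 tested members with 95% intervals in each comparison, filled where the adjusted p was under 0.05. CTH spans the widest intervals, MGST1 lies to the right of 0 in both comparisons with 0 h, and no member is filled between the recovery groups.

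CBS, the first enzyme of transsulfuration, was at the floor of detection. Over all 12 libraries it had 10 counts: 2 at 0 h, 6 with DMSO and 2 with UNC0642. It was at 0 in 5 libraries and never above 3 counts. A count of 0 allows up to 3 counts, which is 0.149 to 0.205 CPM at these depths and covers counting error only, so no fold change is given and a difference between groups was not detectable. The genes on either side of CBS in RefSeq order on chromosome 21, named after their values were seen, had counts in every library: PKNOX1 348 to 541 and U2AF1 3558 to 4803. RefSeq also lists near-identical copies of CBS and of U2AF1. Neither copy has a row under its own symbol in the deposited tables, made on the build hg18. The CBS count is uncertain where reads could match a copy, and this was not tested. HCT116 is known as a line with CBS protein, and the reason for the low count was not tested.

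CTH was higher after DMSO recovery. At 0 h its level was 7.55, 6.30, 7.65 and 6.80 CPM in replicates 1 to 4, in TMM-scaled CPM. After DMSO recovery it was 9.42, 8.77, 9.44 and 8.19 CPM. All 4 DMSO recovery libraries lay above all 4 at 0 h, whose means were 8.96 ± 0.60 and 7.08 ± 0.64 (SD, n = 4). The log2 fold change was 0.34 ± 0.11 (SE; adjusted p = 0.00990), a rise of 26.7% with a 95% interval of 8.87% to 47.4%. This rested on 97 to 178 counts per library, the fewest of the tested members. It was called in all 8 fits that left out a library of either group. It was not called within the long gap class (0.34, adjusted p = 0.0623), within the short gap class (0.38, adjusted p = 0.163) or without the libraries with COL1A2 (0.36, adjusted p = 0.174), where the size was kept and fewer libraries were left. In bulk RNA, a change in the share of cells expressing a gene and a change in its RNA per cell cannot be told apart.

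After UNC0642 recovery CTH stood at 7.33, 8.50, 6.98 and 6.93 CPM, with a mean of 7.43 ± 0.73 (SD, n = 4). Only replicate 2 reached the DMSO recovery range, and the other 3 libraries lay within the range at 0 h. Against 0 h the log2 fold change was 0.07 ± 0.11 (adjusted p = 0.608). Against DMSO recovery it was -0.27 ± 0.10, a difference of -16.9% with a 95% interval of -28.3% to -3.87%, and it did not pass the test (adjusted p = 0.150). A difference of this size between the recovery groups was therefore neither called nor shown to be absent.

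The 250 bases before the CTH start site are shown because CTH had the largest change of the members. The sequence is RefSeq's (GRCh38.p14, chr1:70411018-70411267, plus strand, 5′ to 3′). It was searched, with the 50 bases after the start, on both strands for TGATGNAA, the core of the composite element of ATF4 and CEBP factors, and for TGACNNNGC, the core of the antioxidant response element. Neither string was in this window. Of 35116 promoter windows of 300 bases, 3.62% held TGATGNAA and 13.3% held TGACNNNGC.
CTH promoter: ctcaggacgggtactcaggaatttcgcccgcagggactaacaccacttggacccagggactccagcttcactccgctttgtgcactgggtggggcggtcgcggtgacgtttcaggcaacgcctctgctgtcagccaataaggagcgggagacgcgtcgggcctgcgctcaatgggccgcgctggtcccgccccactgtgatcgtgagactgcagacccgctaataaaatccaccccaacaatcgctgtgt

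**Figure D3:**
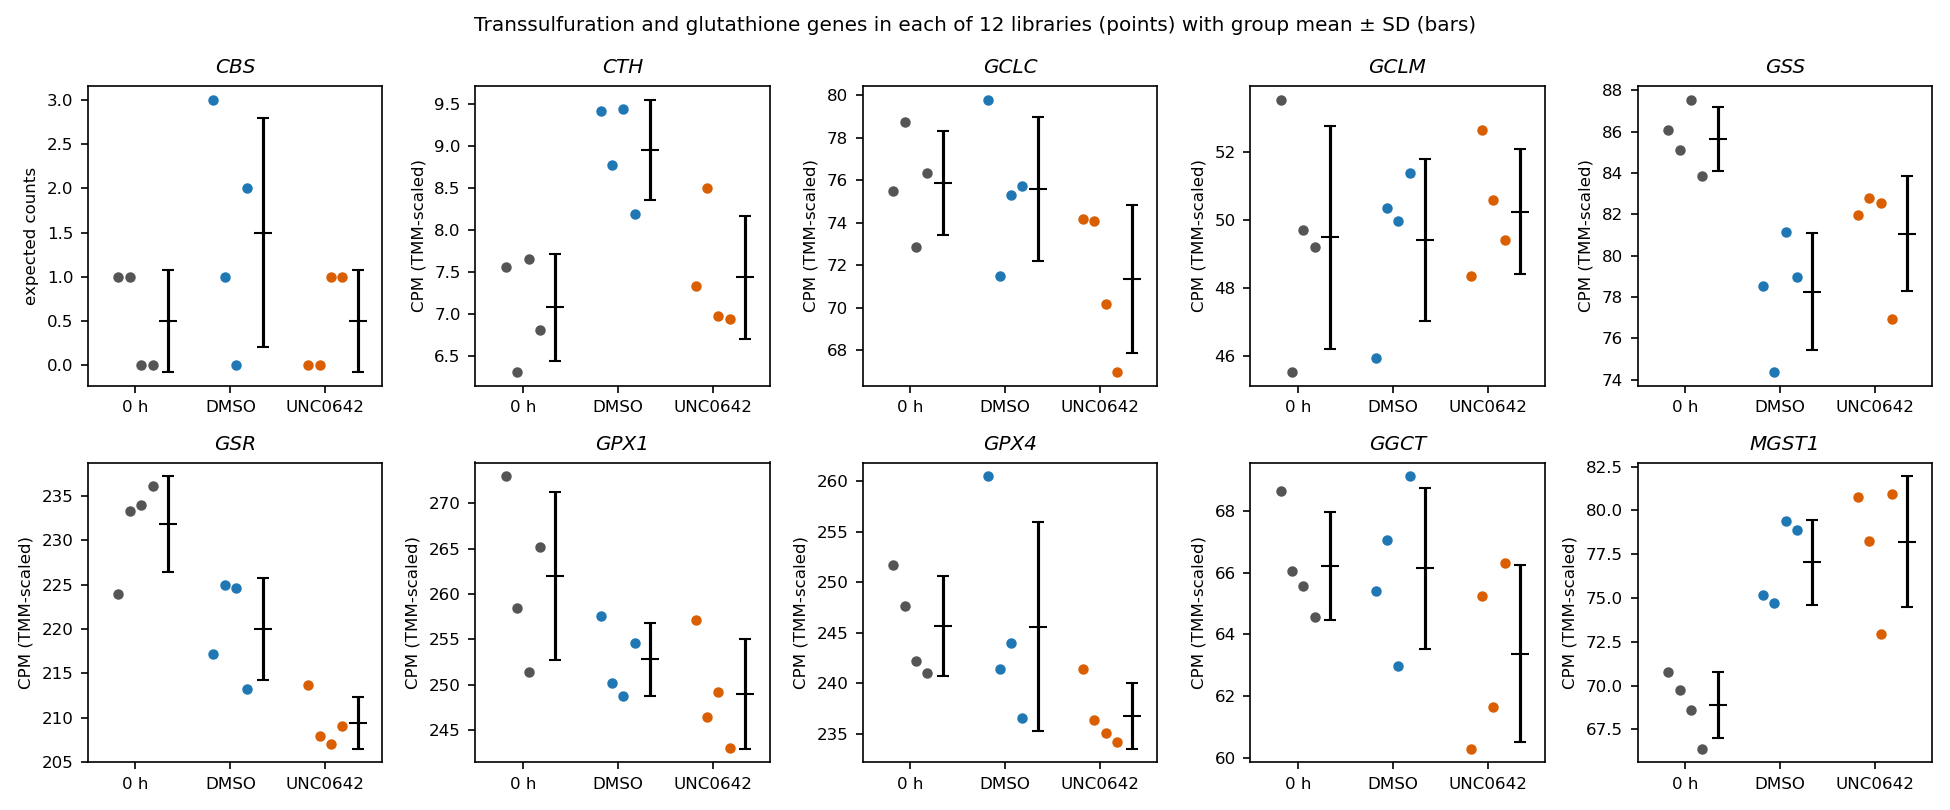
Level of each member in each library (points) with the group mean ± SD over 4 libraries (bars), as TMM-scaled CPM, or in RSEM counts for CBS, with vertical axes that differ and do not start at 0. The groups separate without overlap for CTH (DMSO recovery above 0 h), GSR (UNC0642 recovery below 0 h), and GSS and MGST1 (both recovery groups against 0 h), while GCLC, GCLM, GPX4 and GGCT overlap.

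The ligase that opens glutathione synthesis did not pass the test in any comparison. GCLC ranged from 72.9 to 78.8 CPM at 0 h, 71.5 to 79.8 with DMSO and 67.0 to 74.2 with UNC0642. GCLM ranged from 45.5 to 53.5, 45.9 to 51.4 and 48.4 to 52.6 CPM in the same order. The intervals show how far such null results reach: after DMSO recovery GCLC differed from 0 h by -0.36% (95% interval -6.15% to 5.78%) and GCLM by -0.11% (-7.01% to 7.29%). After UNC0642 recovery GCLC was at a log2 fold change of -0.09 ± 0.04 against 0 h (adjusted p = 0.0846), which was called lower in 1 of 24 alternatives, the correction for gene length (-0.12, adjusted p = 0.0220).

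The ratio of modifier to catalytic subunit, in FPKM, was below 1 in 12 of 12 libraries. It was 0.816 ± 0.071 at 0 h, 0.819 ± 0.070 with DMSO and 0.880 ± 0.047 with UNC0642 (SD, n = 4). The ranges overlap, from 0.722 to 0.886, 0.719 to 0.881 and 0.813 to 0.921. As a ratio of counts, with no correction for the different lengths, it was 0.653, 0.655 and 0.705.

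The 250 bases before the GCLM start site are shown because GCLM is a textbook NRF2 target and its only listed start site has the antioxidant core close by (RefSeq, GRCh38.p14, chr1:93909431-93909680, minus strand, 5′ to 3′). The capitals mark TGACNNNGC read on the opposite strand, at position -34, its first base as printed, counted back from the start site. A match is a description of letters and not a measured binding site. RefSeq windows were found for 7 of the 10 members, all but GSS, GSR and GGCT. CBS also held TGACNNNGC at 1 of 3 start sites and MGST1 at 1 of 3. CTH, GCLC, GPX1 and GPX4 did not, and no window of these 7 genes held TGATGNAA.
GCLM promoter: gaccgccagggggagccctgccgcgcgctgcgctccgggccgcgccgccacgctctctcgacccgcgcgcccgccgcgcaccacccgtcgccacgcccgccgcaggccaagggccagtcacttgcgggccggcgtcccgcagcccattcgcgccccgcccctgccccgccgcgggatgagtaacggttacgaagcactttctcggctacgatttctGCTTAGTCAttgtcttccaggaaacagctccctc

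GSS, the enzyme of the closing step of synthesis, was lower after DMSO recovery. It stood at 86.1, 85.1, 87.5 and 83.9 CPM at 0 h and at 78.5, 74.4, 81.2 and 79.0 CPM after DMSO recovery, with no overlap. The log2 fold change was -0.13 ± 0.04 (adjusted p = 0.00633), or -8.57% with a 95% interval of -13.4% to -3.49%. After UNC0642 recovery GSS stood at 82.0, 82.8, 82.6 and 76.9 CPM. These also lay below all 4 libraries at 0 h, but the log2 fold change of -0.08 ± 0.04 did not pass the test (adjusted p = 0.0875). The call after DMSO recovery held in all 8 fits that left out a library. It was lost with library totals in place of TMM factors (-0.08, adjusted p = 0.109), with log2(FPKM + 1) in limma (-0.07, adjusted p = 0.113), within the short gap class (-0.13, adjusted p = 0.230) and without the libraries with COL1A2 (-0.11, adjusted p = 0.268).

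GSR, which regenerates reduced glutathione, was lower in both recovery groups than at 0 h. Its levels were 224, 233, 234 and 236 CPM at 0 h, and 217, 225, 225 and 213 CPM after DMSO recovery. After UNC0642 recovery they were 214, 208, 207 and 209 CPM, below every library at 0 h. The log2 fold change after UNC0642 recovery was -0.15 ± 0.03 (adjusted p = 5.14e-05), or -9.62% with a 95% interval of -13.1% to -6.03%. This was called in all 24 alternatives, with values from -0.17 to -0.09. After DMSO recovery the groups overlapped through 0 h 1, and the log2 fold change was -0.08 ± 0.03 (adjusted p = 0.0246). That call was lost in 5 of 8 fits that left out a library (0 h 2, 3 or 4, DMSO recovery 1 or 4; adjusted p up to 0.0988). It was also lost within either gap class (adjusted p = 0.268 and 0.0993), without the libraries with COL1A2 (0.115), with library totals (0.539) and with log2(FPKM + 1) (0.607). Between the recovery groups GSR differed by -0.07 ± 0.03 and did not pass the test (adjusted p = 0.156).

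The peroxidases moved little. GPX1, which reduces hydrogen peroxide in the cytosol and mitochondria, stood at 273, 258, 251 and 265 CPM at 0 h. After UNC0642 recovery it stood at 257, 246, 249 and 243 CPM, and the ranges overlap. The log2 fold change was -0.07 ± 0.03 (adjusted p = 0.0294), or -4.98%. The call rests on the scaling: the log2 fold change was -0.01 with library totals (adjusted p = 0.701) and with log2(FPKM + 1) (adjusted p = 0.760), and turned to 0.0087 with the correction for gene length. It was also lost in 5 of 8 fits that left out a library (0 h 1 or 4, UNC0642 recovery 2, 3 or 4; adjusted p up to 0.134), within the short gap class (0.415) and without the libraries with COL1A2 (0.232). After DMSO recovery GPX1 ranged from 249 to 258 CPM, at a log2 fold change of -0.05 ± 0.03 against 0 h (adjusted p = 0.134).

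GPX4, the peroxidase that reduces lipid hydroperoxides in membranes and restrains ferroptosis, was not called in any comparison. It ranged from 241 to 252 CPM at 0 h, 237 to 260 with DMSO and 234 to 241 with UNC0642. Against 0 h it differed by -0.05% after DMSO recovery (95% interval -4.01% to 4.07%) and by -3.64% after UNC0642 recovery (-7.46% to 0.34%). With the correction for gene length GPX4 was called higher after DMSO recovery (log2 fold change 0.08, adjusted p = 0.0148). The ratio of GPX4 to GPX1 FPKM was 0.918 ± 0.026 at 0 h, 0.950 ± 0.033 with DMSO and 0.932 ± 0.011 with UNC0642 (SD, n = 4).

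GGCT, which cleaves gamma-glutamyl amino acids and is used as a proliferation marker, was not called. Its ranges were 64.6 to 68.7, 63.0 to 69.1 and 60.3 to 66.3 CPM at 0 h, with DMSO and with UNC0642. Against 0 h it differed by -0.13% (95% interval -5.99% to 6.10%) after DMSO recovery and by -4.41% (-10.0% to 1.56%) after UNC0642 recovery.

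MGST1, a transferase and peroxidase of the endoplasmic reticulum and outer mitochondrial membrane, rose in both recovery groups. It stood at 70.8, 69.8, 68.6 and 66.4 CPM at 0 h, at 75.1, 74.7, 79.4 and 78.9 CPM after DMSO recovery and at 80.8, 78.3, 72.9 and 80.9 CPM after UNC0642 recovery. Every recovery library lay above every library at 0 h. The log2 fold change was 0.16 ± 0.04 after DMSO recovery (adjusted p = 0.00185), a rise of 11.8% with a 95% interval of 5.46% to 18.5%. After UNC0642 recovery it was 0.18 ± 0.04 (adjusted p = 0.000446), a rise of 13.5% with an interval of 7.08% to 20.2%. These comparisons share the 0 h libraries. Each call was lost in 1 of 24 alternatives: after DMSO recovery within the short gap class (0.15, adjusted p = 0.143), and after UNC0642 recovery within the long gap class (0.11, adjusted p = 0.146). The recovery groups differed by 1.51% (95% interval -4.04% to 7.39%).

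The match to TGACNNNGC near MGST1 is shown because MGST1 was the member called higher in both recovery groups. It begins at position 31 counted from 1 of 3 RefSeq start sites (GRCh38.p14, chr12:16347135-16347163, plus strand, match in capitals), and no binding was measured there. The match lies within the 50 bases after this start site, which as a whole were in none of the MGST1 transcripts searched. Those after the other MGST1 start sites were found in a transcript.
MGST1 window: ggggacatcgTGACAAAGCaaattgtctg

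The genes around the members were grouped in 7 lists. Genes called in a list are to be read against the shares of all genes tested. These were 44.1% after DMSO recovery (22.4% higher, 21.7% lower) and 47% after UNC0642 recovery (23.4% higher, 23.6% lower). Between the recovery groups the share was 4.58%. In the list for cystine uptake and glutathione turnover, 10 of 13 genes were tested. After DMSO recovery 1 was higher and 5 were lower, with a median log2 fold change of -0.17, and after UNC0642 recovery 3 were higher and 4 lower, with a median of -0.09. The heavy chain of the cystine carrier, SLC3A2, stood at 418 to 431 CPM at 0 h, 352 to 369 with DMSO and 372 to 394 with UNC0642, without overlap with 0 h. It fell by 0.23 and 0.16 on the log2 scale (SE 0.02 each; adjusted p = 4.48e-09 and 2.14e-06). The light chain SLC7A11, named after its values were seen, changed in the same direction (-0.34 ± 0.07, adjusted p = 0.000295, and -0.19 ± 0.07, adjusted p = 0.0301). SLC7A11 lay below 0 h without overlap after DMSO recovery but overlapped with 0 h after UNC0642 recovery, and its calls were not examined in the alternatives. LAP3, a leucine aminopeptidase that can split cysteinylglycine, stood at 115 to 120, 89.0 to 97.6 and 94.1 to 97.5 CPM and fell by 0.32 and 0.28 (SE 0.04 each; adjusted p = 5.59e-09 and 6.91e-08).

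CHAC1, which degrades glutathione in the cytosol and is induced by ATF4, was the member of this list that differed between the recovery groups. It had 2.28, 3.53, 2.08 and 2.01 CPM after DMSO recovery and 3.46, 3.29, 4.07 and 4.46 CPM after UNC0642 recovery. The groups overlap through DMSO recovery 2. The log2 fold change was 0.64 ± 0.19 (adjusted p = 0.0384), and it was called in 2 of 8 fits that left out a library (adjusted p up to 0.144; without DMSO recovery 1, 3 or 4 or UNC0642 recovery 1, 3 or 4 it was lost). It was also lost within the long (adjusted p = 0.288) and short (0.350) gap classes, without the libraries with COL1A2 (0.491) and with log2(FPKM + 1) (0.0630). At 0 h CHAC1 had 3.45, 4.89, 3.69 and 3.30 CPM. It was lower after DMSO recovery than at 0 h (-0.65 ± 0.19, adjusted p = 0.00527) and at -0.01 ± 0.18 after UNC0642 recovery (adjusted p = 0.954).

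Among the pathway genes named, the largest rises against 0 h were in cysteine and sulfide catabolism. Genes were not named by size of change, and some pathway genes not named had larger log2 fold changes. Of the 11 genes in the list for cysteine and sulfide catabolism 10 were tested. After DMSO recovery 2 were higher and 1 lower, and after UNC0642 recovery 2 were higher and 2 lower, with medians of 0.00088 and 0.0040. The rises were those of TST (rhodanese, a mitochondrial sulfurtransferase) and SQRDL (sulfide:quinone oxidoreductase, now named SQOR). TST stood at 10.3 to 11.3 CPM at 0 h, 17.7 to 19.3 with DMSO and 18.3 to 20.2 with UNC0642. Its log2 fold changes were 0.77 ± 0.07 (adjusted p = 3.62e-10) and 0.88 ± 0.07 (adjusted p = 1.25e-11).

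SQRDL stood at 9.04 to 10.0, 14.5 to 15.8 and 17.4 to 20.0 CPM, with log2 fold changes of 0.62 ± 0.08 (adjusted p = 1.64e-07) and 0.92 ± 0.08 (adjusted p = 2.18e-11). It was also higher after UNC0642 than after DMSO recovery, by 0.30 ± 0.07 (adjusted p = 0.0116), with no overlap. That call was lost without UNC0642 recovery 1 (0.24, adjusted p = 0.0754), within the long (0.22, 0.325) and short (0.39, 0.247) gap classes and without the libraries with COL1A2 (0.32, 0.0785).

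**Figure D4:**
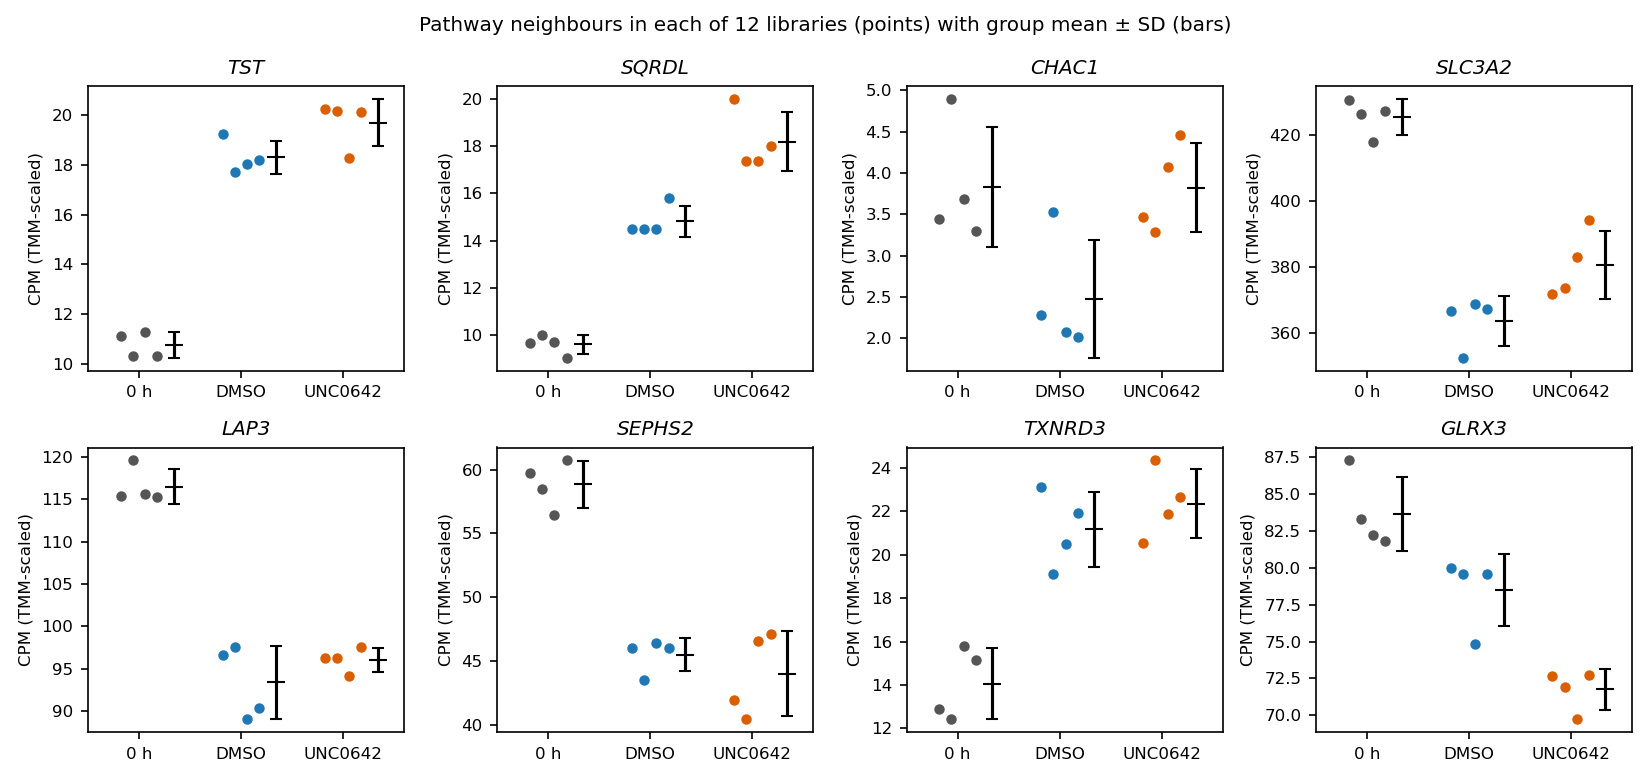
TMM-scaled CPM of 8 named pathway genes in each library (points) with the group mean ± SD over 4 libraries (bars), on vertical axes that differ and do not start at 0. TST and SQRDL lie above 0 h in every recovery library, SLC3A2, LAP3 and SEPHS2 lie below it, and CHAC1 overlaps between all groups.

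The transferases related in function to MGST1 split in both directions. Of 23 glutathione S-transferase genes 13 were tested, with 4 higher and 4 lower after DMSO recovery and 6 higher and 3 lower after UNC0642 recovery (medians 0.18 and 0.18). PTGES, a membrane prostaglandin synthase of the same superfamily as MGST1, rose by 0.48 ± 0.07 (adjusted p = 2.75e-06) and 0.54 ± 0.07 (adjusted p = 2.90e-07). The abundant cytosolic transferase GSTP1 fell by 0.21 and 0.19 (SE 0.03 each; adjusted p = 4.11e-08 and 1.13e-07). None of the 13 was called between the recovery groups, beside 4.58% of all genes. Of the other 6 glutathione peroxidases only GPX8, a peroxidase of the endoplasmic reticulum, was tested. It stood at 39.2 to 41.2, 42.2 to 49.0 and 45.6 to 52.3 CPM and rose by 0.16 ± 0.05 (adjusted p = 0.0165) and 0.25 ± 0.05 (adjusted p = 0.000261). The calls of GPX8 were lost without the libraries with COL1A2 (adjusted p = 0.271 and 0.0713). The first was lost within the short gap class (0.452) and without 0 h 3 (0.050) or DMSO recovery 4 (0.0998), and the second within the long gap class (0.0724). GPX2, GPX3, GPX5, GPX6 and GPX7 had at most 7 counts in any library.

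Among 7 tested glutaredoxins and glyoxalases, which use glutathione as a cofactor, 2 were higher and 1 lower after DMSO recovery, and 2 were lower after UNC0642 recovery (medians -0.08 and -0.01). GLO1, which detoxifies methylglyoxal, was higher after DMSO recovery than at 0 h (0.10 ± 0.03, adjusted p = 0.00639) and lower after UNC0642 than after DMSO recovery (-0.11 ± 0.03, adjusted p = 0.0209). The iron-sulfur glutaredoxin GLRX3 was lower than at 0 h in both recovery groups, without overlap. Its log2 fold change was -0.09 ± 0.04 after DMSO recovery (adjusted p = 0.0465) and -0.22 ± 0.04 after UNC0642 recovery (adjusted p = 1.28e-05). It was also lower after UNC0642 than after DMSO recovery (-0.13 ± 0.04, adjusted p = 0.0395). The call after UNC0642 recovery against 0 h was lost without the libraries with COL1A2 (-0.18). Alternatives to its call after DMSO recovery were not examined. The call of GLO1 between the recovery groups was lost in 4 of 8 fits that left out a library (adjusted p up to 0.0962; without DMSO recovery 3 or 4 or UNC0642 recovery 1 or 4), and that of GLRX3 in 7 of 8 (adjusted p up to 0.128; in each except that without DMSO recovery 3). Within the long and short gap classes and without the libraries with COL1A2, the adjusted p of this comparison was 0.189, 0.434 and 0.0905 for GLO1 and 0.184, 0.557 and 0.362 for GLRX3. This call of GLO1 was also lost with log2(FPKM + 1) (0.0986), and that of GLRX3 with library totals (0.0520) and with only the 8 libraries compared in the fit (0.0515). The dithiol glutaredoxin GLRX was higher after DMSO recovery (0.28 ± 0.09, adjusted p = 0.00927), and ESD, which acts on S-formylglutathione, was lower after UNC0642 recovery (-0.11 ± 0.03, adjusted p = 0.0115). Both had the same sign in the other recovery group without a call. GLRX was at 0.17 ± 0.09 after UNC0642 recovery (adjusted p = 0.116), without overlap with 0 h, and ESD at -0.08 ± 0.03 after DMSO recovery (adjusted p = 0.0633). Neither was called between the recovery groups (adjusted p = 0.541 and 0.750). Against 0 h, GLO1 and GLRX were not called within either gap class (adjusted p 0.0729 to 0.169), GLO1 was not called without 0 h 4 (0.0532) and GLRX was not called without the libraries with COL1A2 (0.290). ESD was not called in 6 of 24 alternatives: the short gap class (adjusted p = 0.612), library totals (0.261), log2(FPKM + 1) (0.243), the length correction (0.197), without the libraries with COL1A2 (0.228) and without 0 h 2 (0.0577).

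GPX1 and GPX4 carry selenocysteine, so the other selenoproteins and the insertion machinery were counted beside them. Of 19 other selenoproteins 17 were tested, with 6 higher and 3 lower after DMSO recovery and 5 higher and 5 lower after UNC0642 recovery (medians 0.03 and 0.05). TXNRD3, a thioredoxin-glutathione reductase, rose from 12.4 to 15.8 CPM at 0 h to 19.1 to 23.1 and 20.5 to 24.3 CPM, log2 fold changes of 0.60 ± 0.08 (adjusted p = 2.58e-07) and 0.68 ± 0.08 (adjusted p = 2.04e-08). SEPHS2, which makes the selenium donor, fell by 0.37 and 0.42 (SE 0.05 each; adjusted p = 2.12e-07 and 1.71e-08). In the insertion machinery 0 of 6 were higher and 2 were lower in each comparison with 0 h (medians -0.01 and -0.01). These were the SEPHS2 paralogue SEPHS1 (-0.24 ± 0.04, adjusted p = 3.31e-06, and -0.21 ± 0.04, adjusted p = 2.64e-05) and the SECIS-binding protein gene SECISBP2 (-0.19 ± 0.05, adjusted p = 0.00478, and -0.25 ± 0.05, adjusted p = 0.000271). After DMSO recovery SECISBP2 was not called within the short gap class (adjusted p = 0.246) or with log2(FPKM + 1) in limma (-0.12, adjusted p = 0.0675). None of these selenoprotein or machinery genes was called between the recovery groups, beside 4.58% of all genes.

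**Figure D5:**
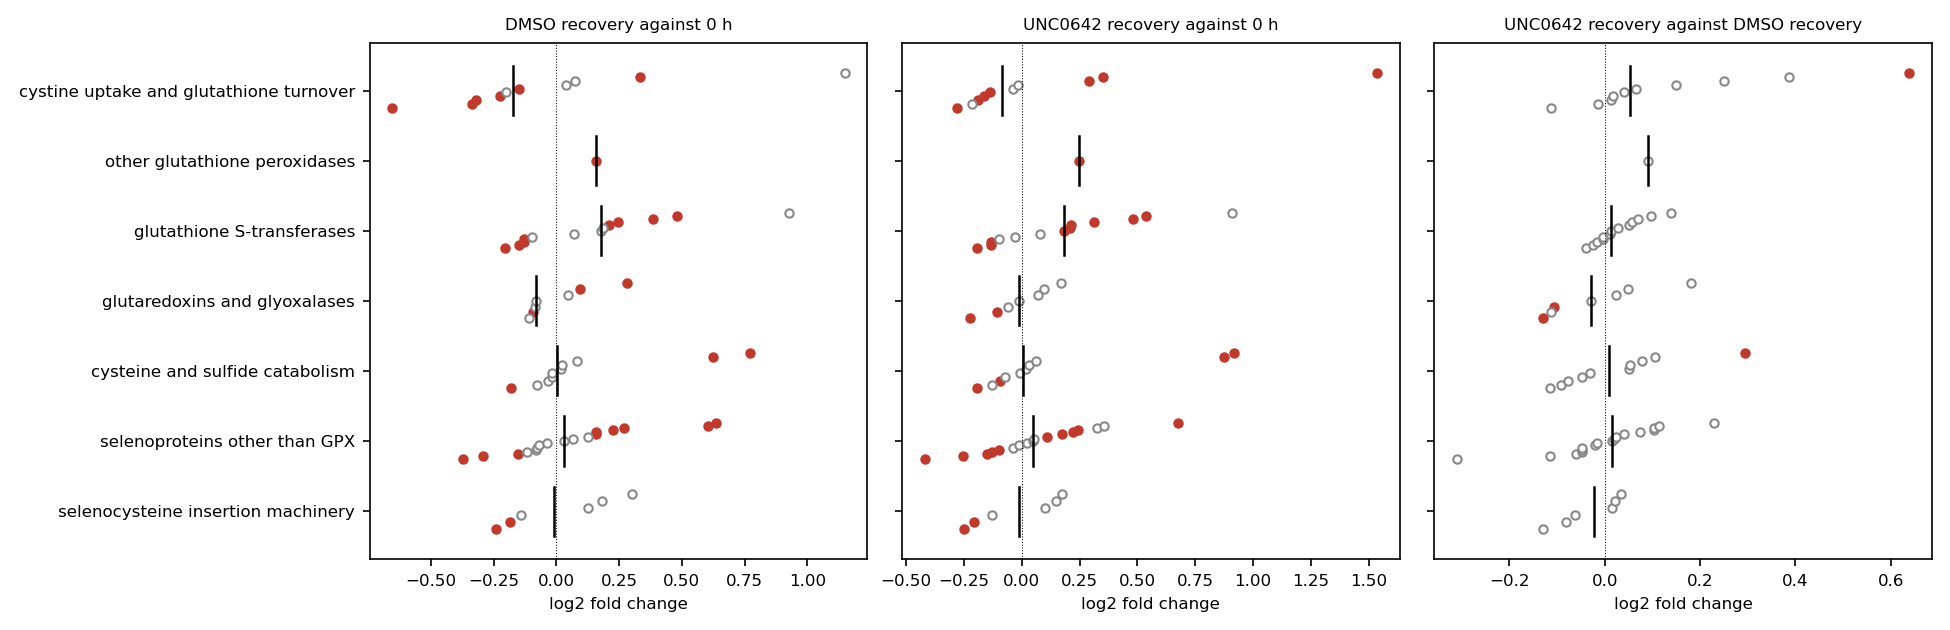
Log2 fold change of every tested gene in the 7 pathway lists, by comparison, filled where the adjusted p was under 0.05, with the list median as a vertical bar and horizontal scales that differ between panels. After DMSO recovery filled points lie on both sides of 0 in 5 of the 7 lists, and few points are filled between the recovery groups.

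The genes whose levels followed each member most closely over the 12 libraries were taken from 9870 genes of mean log2 CPM of at least 3, by Pearson's r of log2 CPM. These values describe libraries that share 3 groups and a scaling, and no test is attached. CTH was followed by C1QL4 (r = 0.90) and SEMA6B (0.89), GSS by AKIRIN2 (0.97) and KLF5 (0.94), GSR by RBM15B and ALDH7A1 (0.93 each), and MGST1 by MOSPD3 (0.96) and ATL3 (0.94). For GCLC they were TIMM22 (0.89) and LUC7L3 (0.87), for GCLM EXOC8 and ZNF707 (0.84 each), for GPX1 POMP (0.94) and FIP1L1 (0.91), for GPX4 FSD1 (0.92) and TBC1D20 (0.88), and for GGCT MPND (0.88) and CAMTA1 (0.84). Of these 18 pairs, 5 stayed among the top 2 both with library totals and with log2(FPKM + 1): CTH with C1QL4, GCLM with EXOC8, GGCT with MPND, GSS with AKIRIN2 and MGST1 with MOSPD3. No member was among the genes closest to another member.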

How the data were processed

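The submitters' processing notes name RSEM 1.2.4, Bowtie and the build hg18. The sources used here give neither the kit's strandedness nor the counting strand, and reads of overlapping or antisense genes cannot be told apart. Per the file headers, the deposited tables give expected counts (estimated by RSEM, with fractions), FPKM as deposited by the authors, and other values per gene, the length and effective length. Expected counts were rounded and 12741 of 18969 genes kept by filterByExpr. The test was edgeR's quasi-likelihood F-test (4.0.16, two-sided, TMM factors, a mean per group, all 12 libraries in 1 fit) in R 4.3.3. The threshold for a call was 0.05 after Benjamini-Hochberg adjustment, and adjusted p in the text come from this fit unless another is named. Log2 fold changes carry standard errors and CPM and FPKM carry SD over 4 libraries. FPKM were tested as log2(FPKM + 1) in limma 3.58.1 as an alternative, a scale that understates changes of low genes. In 18 pairs of replicates the chi-square statistic per degree of freedom was 2.02 to 3.55, so no pair agreed within sampling noise. Other alternatives were RLE factors, library totals, no filter, a stricter one (1 CPM or more in 4 libraries), unrounded counts, corrections for gene length and effective length, a replicate block, the length-gap class as a covariate or each class alone, leaving out libraries, limma-voom and DESeq2 1.42.0. The ratio of CTH to CBS was not computed because CBS was at 0 in 5 libraries. The members and lists were chosen with earlier results of these data known. Per list and comparison, the text names up to 2 called genes with the smallest p and a mean log2 CPM of at least 1. Promoter sequences are from RefSeq (GRCh38.p14). No protein sequence was used here. Counts were also simulated, with the same means at 0 h and in DMSO recovery. Of the simulated calls between the recovery groups, 10.4% were false genes, above the 0.05 threshold. Known fold changes of 1.2, 1.5, 2 and 4 were recovered in 58%, 92%, 96% and 100% of genes. Calls near the threshold are therefore less certain than their adjusted p, and small differences could be missed.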

Additional observations from a re-analysis of the deposited data

Results flagged for a closer look

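Of 33 sets of 4 values (9 members and 2 ratios in 3 groups), 1 held a value far from the other 3, where chance gives about 1 in 20, here 1.65. GSS stood at 76.9 CPM in UNC0642 recovery 4, and at 82.0 to 82.8 CPM in the other 3 libraries of that group. The cause was not tested. Without that library GSS was still not called against 0 h, and it was called in 0 of the 24 alternatives. Leaving out 1 library gave adjusted p of 0.0769 to 0.268.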

How the results depend on the processing

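Over 24 alternatives per comparison, GSR after UNC0642 recovery against 0 h was the call of a member that held in each. Members called after DMSO recovery against 0 h numbered 4 and became 2 with library totals, 2 within the long gap class, 2 with log2(FPKM + 1) in limma, 1 without the libraries with COL1A2 and 0 within the short gap class. In both reduced sets some groups are 1 library, assumed to vary like the others. In the same comparison the genes called fell from 5617 to 2526 within the short gap class and to 2987 without the COL1A2 libraries. After UNC0642 recovery they fell from 5990 to 3889 and 2836, and between the recovery groups from 584 to 120 and 277, with 292 within the long gap class. Fewer libraries were fitted in each. Leaving out 1 library gave 3 to 4, 2 to 3 and 0 to 0 members and 5153 to 5311, 5505 to 5697 and 402 to 618 genes.

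The members that changed sign were close to 0, and 1 of these, GPX1 against 0 h after UNC0642 recovery, was called. Log2 fold changes after DMSO recovery against 0 h turned to 0.048 (GCLC), 0.052 (GCLM), 0.0017 (GPX1), 0.053 (GPX4) and 0.052 (GGCT) with library totals, and to 0.049, 0.053, 0.019, 0.068 and 0.064 with log2(FPKM + 1). With no filter GCLM, GPX4 and GGCT were at 0.0012, 0.0020 and 0.0010, and with the stricter filter at 0.00086, 0.0018 and 0.00068. The length correction put GPX1, GPX4 and GGCT at 0.027, 0.076 and 0.058. Effective length offsets put GPX4 and GGCT at 0.0096 and 0.0067, the gap class as a covariate put GPX4 at 0.0036, and limma-voom put GCLM at 0.00025. The long gap class gave GCLM 0.032, the short class GCLC 0.097, GPX4 0.11 and GGCT 0.0069, and the set without COL1A2 libraries GCLM 0.033 and GGCT 0.034. Leaving out 1 library gave -0.043 to 0.039 for GCLM, -0.026 to 0.017 for GPX4, -0.025 to 0.021 for GGCT and -0.027 to 0.019 for GCLC. After UNC0642 recovery against 0 h, GPX4 turned to 0.0060 with library totals, 0.0093 with log2(FPKM + 1) and 0.027 with the length correction, which put GPX1 at 0.0087. The short gap class put CTH at -0.019 and GCLM at -0.018, and leaving out 1 library put GCLM at -0.019 to 0.063. Between the recovery groups MGST1 was at -0.039 in the long gap class. Without the COL1A2 libraries GCLM was at -0.0037 and GPX1 at 0.0041, and leaving out 1 library put GCLM at -0.011 to 0.044. The cause was not tested.

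With a replicate block 4, 3 and 0 members and 5668, 5998 and 633 genes were called, and no call of a member changed. Whether the numbers pair the libraries was not settled. Deviations of same-numbered libraries correlated at -0.26 to 0.14, above 0.1 in 3 of 12 pairs, and 4 of 12 libraries matched their own number best. Between the DMSO and UNC0642 recovery libraries the values were 0.14, 0.11, -0.17 and -0.26 for replicates 1 to 4. CBS had the fewest counts of the members, at most 3 in any library.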
